A study of Mus musculus with 6 samples.

Results

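Chains of the fibrillar collagens I, III and V were followed in obstructed mouse kidneys with and without Cd248. The members were the 6 rows of the deposited gene table named Col1a1, Col1a2, Col3a1, Col5a1, Col5a2 and Col5a3, of 33679 genes in all. The kidneys came from Cd248 knockout mice (Cd248 KO) and wild type mice (WT). Both groups had undergone unilateral ureteral obstruction, in which the ureter of one kidney is tied off and that kidney scars. The labels name 3 samples a group, and values were used for 1 Cd248 KO library and 3 WT libraries. Cd248 KO replicates 2 and 3 and any unobstructed kidney were not analysed here. The sources used here do not give the time after surgery, strain, sex, age or the design of the knockout allele. The labels' protocol speaks of libraries from pooled RNA of fibrotic kidneys, and nothing says that the WT replicates were separate animals, so the p-values rest on a spread between libraries that may be technical.

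Fibrillar collagens are the rope-like proteins that give connective tissue its tensile strength. Each molecule is a triple helix of chains that are made with end propeptides, folded and hydroxylated in the endoplasmic reticulum, trimmed outside the cell and crosslinked into fibrils. Type I collagen is the bulk of most scars, type III is laid down with it, and type V is a minor partner that nucleates fibrils and limits their width. In the scarring kidney these chains come mainly from fibroblasts, pericyte-derived cells and myofibroblasts. Cd248 encodes endosialin, a surface glycoprotein of fibroblasts and pericytes.

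The Cd248 KO library followed its label. Cd248 was listed at 0 FPKM (fragments per kilobase of transcript, scaled to the mapped fragments of the library) in the Cd248 KO library, against 9.03, 9.57 and 8.78 FPKM in WT replicates 1, 2 and 3. Read depth is unknown, since the table holds no counts. FPKM summed to 304426 in the Cd248 KO library and to between 267394 and 285322 in the WT libraries. Immunoglobulin genes took 5.98% of that sum in the Cd248 KO library, against 0.113% to 0.202% in the WT libraries. Markers of kidney proximal tubule (10 of 10 tested) summed to 507 FPKM in the Cd248 KO library, against 191 to 565 FPKM in the WT libraries, with no marker at 0. Over all 16871 genes tested with limma on log2(FPKM + 1), 14 were lower and 108 were higher in the Cd248 KO library at an adjusted p under 0.05.

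All 6 fibrillar chains had a lower FPKM in the Cd248 KO library than in any WT library. Of the 6, Col1a1 and Col5a2 fell by the test across all genes, and the other 4 did not pass it. Over all tested genes, 0.0830% were called lower in this way, 0.723% were called in either direction, and 31.2% lay below every WT library. Differences on the log2(FPKM + 1) scale ran between -1.26 for Col5a1 and -0.29 for Col5a3, with a median of -1.12, against -0.01 over all tested genes. A difference of -1 or lower was reached by 4 chains and by 0.830% of all tested genes. The chains were chosen with results of these data known, so these counts describe them and do not test them as a group. In bulk tissue, fewer cells of a type and less RNA per cell cannot be told apart.

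Col1a1 (ENSMUSG00000001506; mm10, chromosome 11, 94936224 to 94953042, plus strand) encodes the chain that makes up most of type I collagen. It was at 68.8 FPKM in the Cd248 KO library, against 159, 170.4 and 160.4 FPKM in WT replicates 1, 2 and 3. The WT libraries lay close together, at 163 ± 6.21 FPKM (SD, n = 3), and the Cd248 KO library was at 42.1% of their mean. On the log2(FPKM + 1) scale this came to -1.23 (SE 0.10), with a limma adjusted p of 0.0313.

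Col1a2 (ENSMUSG00000029661; chromosome 6, 4504814 to 4541544, plus strand) encodes the partner chain of type I collagen. It was at 50.1 FPKM in the Cd248 KO library, against 98.1, 118 and 106 FPKM in WT replicates 1, 2 and 3. The groups did not overlap, and the Cd248 KO level was 46.7% of the WT mean of 107 ± 10.1 FPKM (SD, n = 3). Its difference of -1.08 (SE 0.14) did not pass, with a limma adjusted p of 0.105.

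Col3a1 (ENSMUSG00000026043; chromosome 1, 45311538 to 45349706, plus strand) encodes the single chain of type III collagen and was the highest of the 6 in every library. It was at 83.2 FPKM in the Cd248 KO library, against 173, 239 and 162 FPKM in WT replicates 1, 2 and 3. WT replicate 2 was the high one, and the coefficient of variation of the WT libraries was 21.7%, the widest of the 6 chains. The Cd248 KO level was 43.4% of the WT mean of 191 ± 41.5 FPKM (SD, n = 3). The difference of -1.17 had an SE of 0.25 and did not pass (limma adjusted p = 0.287). Ranked by FPKM among all genes, Col3a1 stood at 351 in the Cd248 KO library and at 124, 78 and 126 in WT replicates 1, 2 and 3.

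Type V collagen is encoded by Col5a1, Col5a2 and Col5a3. Col5a1 (ENSMUSG00000026837; chromosome 2, 27886425 to 28039514, plus strand) was at 10.7 FPKM in the Cd248 KO library, against 25.1, 29.99 and 26.0 FPKM in WT replicates 1, 2 and 3. This was the chain with the lowest level relative to WT, at 39.4% of the WT mean of 27.0 ± 2.60 FPKM (SD, n = 3). Its difference of -1.26 (SE 0.13) just missed the threshold, with a limma adjusted p of 0.0527.

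Col5a2 (ENSMUSG00000026042; chromosome 1, 45374321 to 45503282, minus strand), the usual partner of Col5a1, was at 14.4 FPKM in the Cd248 KO library, against 29.45, 30.9 and 29.1 FPKM in WT replicates 1, 2 and 3. Its WT libraries had the smallest coefficient of variation of the 6 chains, 3.17%. The difference was -0.998 (SE 0.08; limma adjusted p = 0.0313), smaller than that of Col5a1, which did not pass. Col5a2 and Col3a1 lie end to end on chromosome 1 with 24614 bases between their 3′ ends. Each row of the table joins all transcripts it lists for a gene, between 2 (Col5a3) and 7 (Col1a2), so exons and UTRs cannot be told apart. Other small genes annotated in GENCODE M21 overlap every chain but Col1a1, and those listed in the table were at or below 1.43 FPKM in every library.

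Col5a3 (ENSMUSG00000004098; chromosome 9, 20770050 to 20815067, minus strand) encodes a chain of a less common form of type V collagen. It was at 3.74 FPKM in the Cd248 KO library, against 5.10, 4.88 and 4.45 FPKM in WT replicates 1, 2 and 3. The groups did not overlap, but the gap was small, with the Cd248 KO library at 84.0% of the lowest WT library and at 77.8% of the WT mean of 4.81 ± 0.331 FPKM (SD, n = 3). The difference was -0.29 with a 95% interval of -0.59 to 0.0026 (limma adjusted p = 0.467). Of all tested genes, 10.4% had a lower difference than Col5a3, against 0.445% to 0.836% for each of the other 5 chains.

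**Figure D1:**
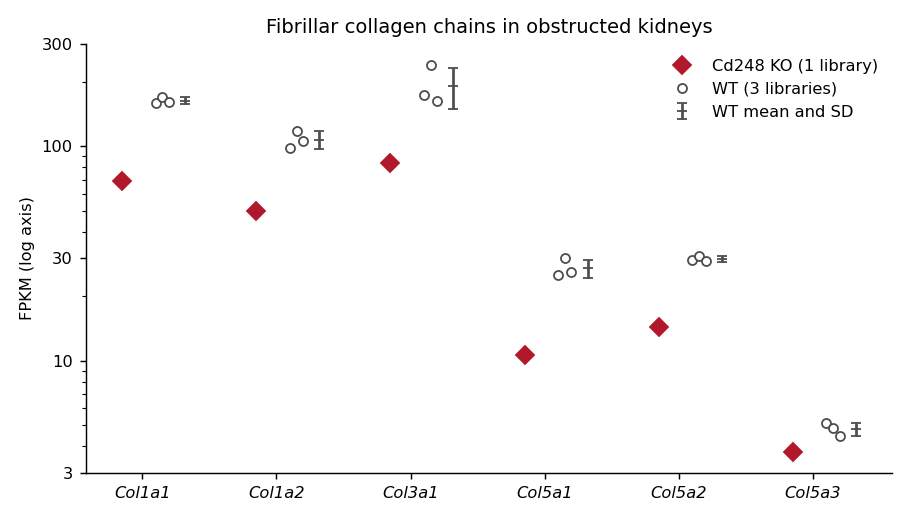
FPKM (log axis) of the 6 chains, with the Cd248 KO library as a diamond, the 3 WT libraries as open circles, and the WT mean and SD as a bar. Each diamond lies below its circles, by the least for Col5a3 (3.74 FPKM against a lowest WT value of 4.45 FPKM).

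The calls of Col1a1 and Col5a2 rested on all 3 WT libraries. Leaving 1 out took the residual degrees of freedom from 2 to 1, and calls were lost over all genes too. The differences changed little, at -1.25 to -1.20 for Col1a1 and -1.01 to -0.97 for Col5a2. Without WT replicate 1, 2 or 3, the limma adjusted p was 0.140, 0.331 and 0.193 for Col1a1 and 0.165, 0.282 and 0.172 for Col5a2, and it was 0.147 for both when immunoglobulin genes were not tested. With the libraries scaled to the same FPKM total, 4 of the 6 passed, Col1a2 (limma adjusted p = 0.0447) and Col5a1 (0.0217) among them. An exact permutation test of 1 library against 3 gave p = 0.25 for each chain, the smallest this design allows. In the authors' deposited table, Col1a1, Col1a2, Col3a1, Col5a1 and Col5a2 are marked as significant, with fold changes of 0.39 to 0.48, and Col5a3 is not (fold change 0.78, q-value 0.89). Which test lies behind those marks is not stated.

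Summed over the 6 chains, FPKM came to 231 in the Cd248 KO library, against 489.9, 593 and 488 FPKM in WT replicates 1, 2 and 3. That was 0.0758% of all FPKM in the Cd248 KO library and 0.183%, 0.212% and 0.171% in the WT libraries. By type, the Cd248 KO level relative to the WT mean was 44.0% for type I, 43.4% for type III and 46.7% for type V. WT replicate 2 was the highest WT library for 5 of the 6 chains, and WT replicate 1 for Col5a3. The order of the chains by FPKM, which is scaled to transcript length, was the same in all 4 libraries: Col3a1, Col1a1, Col1a2, Col5a2, Col5a1, Col5a3. Not all neighbours in that order were apart: across the WT libraries the ranges of Col3a1 and Col1a1 overlapped, as did those of Col5a2 and Col5a1.

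Ratios of chains within a library do not depend on a factor that scales the whole library. Among the 15 pairs of chains, the Cd248 KO ratio lay outside the WT range for 10, including all 5 pairs with Col5a3, which share that gene. Over all pairs of genes that averaged 2 FPKM or more the share outside was 63.6%, so 10 of 15 is near the background and is no result about the chains. Without Col5a3, the shift from the WT mean was at most 0.29 on the log2 scale in any of the other 10 pairs. With Col5a3 it was 0.69 to 0.98. Every pair had an exact permutation p of 0.25 or more and an adjusted p over the 15 pairs of at least 0.469, and this design cannot go lower than p = 0.25 before adjustment.

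Within type I collagen, Col1a1 stood to Col1a2 at a ratio of 1.37 in the Cd248 KO library, against 1.62, 1.44 and 1.52 in WT replicates 1, 2 and 3. The Cd248 KO ratio was below all of them by a small margin (-0.15 on the log2 scale; exact permutation p = 0.50). Between types I and III, Col1a1 to Col3a1 was 0.827 in the Cd248 KO library, against 0.918, 0.713 and 0.989 in the WT libraries, and so inside the WT range. The ratio with the least WT spread was that of Col1a1 to Col5a2, at 4.77 in the Cd248 KO library, against 5.40, 5.52 and 5.51 in the WT libraries (-0.20 on the log2 scale, WT SD 0.017).

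Within type V collagen the chains were less even. Col5a1 to Col5a2 was 0.739 in the Cd248 KO library, against 0.853, 0.971 and 0.893 in WT replicates 1, 2 and 3 (-0.29 on the log2 scale; exact permutation p = 0.25). Col5a1 to Col5a3 was 2.85 in the Cd248 KO library, against 4.93, 6.15 and 5.84 in the WT libraries (-0.98 on the log2 scale; exact permutation p = 0.25). Col5a3 made up 1.62% of the summed FPKM of the 6 chains in the Cd248 KO library and 1.04%, 0.823% and 0.912% in the WT libraries. The shares of Col1a1 and Col3a1, 29.8% and 36.0% in the Cd248 KO library, lay inside their WT ranges of 28.7% to 32.9% and 33.3% to 40.3%.

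**Figure D2:**
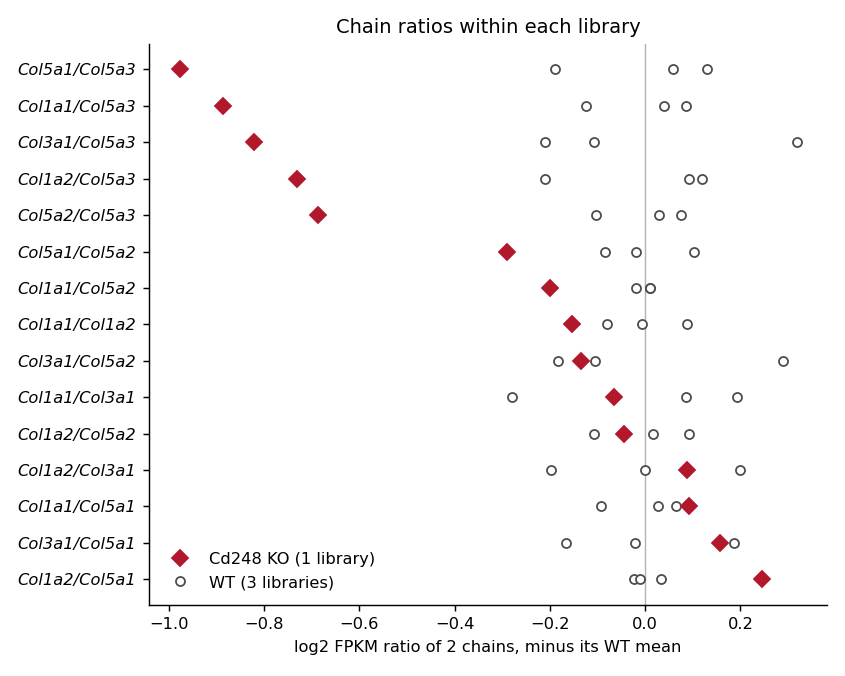
log2 of the FPKM ratio of each of the 15 pairs of chains within a library, minus the WT mean of that ratio, with the Cd248 KO library as a diamond and the 3 WT libraries as open circles. The 5 pairs with Col5a3 lie between -0.98 and -0.69 in the Cd248 KO library, and the other 10 between -0.29 and 0.25.

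Promoters are shown because 5 of the chains lay near each other in their differences and Col5a3 did not. The RefSeq promoter table (GRCm38.p6, the assembly of mm10) had entries for Col1a2, Col3a1, Col5a1 and Col5a3, 4 of the 6, each of 300 bases around the RefSeq start, of which the last 50 follow it. They are written 5′ to 3′ on the strand of the gene. Capitals mark matches on either strand to CCAAT (the CCAAT box), GGGCGG (the GC box), TATAAA (the TATA box), CAGAC (a core that SMAD proteins bind) and CATTCC (a core that TEAD factors bind). No matches overlapped.
Col1a2, chr6:4505368-4505667, plus strand: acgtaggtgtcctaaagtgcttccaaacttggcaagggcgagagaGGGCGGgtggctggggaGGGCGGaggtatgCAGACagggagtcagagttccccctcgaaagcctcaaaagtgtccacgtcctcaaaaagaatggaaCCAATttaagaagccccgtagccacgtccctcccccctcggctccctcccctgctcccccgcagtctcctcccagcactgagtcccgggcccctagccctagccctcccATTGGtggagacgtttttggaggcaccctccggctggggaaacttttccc
Col3a1, chr1:45311288-45311587, plus strand: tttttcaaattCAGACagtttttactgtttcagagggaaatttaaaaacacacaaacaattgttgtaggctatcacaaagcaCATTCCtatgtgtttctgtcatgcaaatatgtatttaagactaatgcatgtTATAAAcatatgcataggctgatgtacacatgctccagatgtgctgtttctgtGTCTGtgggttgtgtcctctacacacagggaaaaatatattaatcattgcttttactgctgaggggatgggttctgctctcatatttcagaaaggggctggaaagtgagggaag
Col5a1, chr2:27886175-27886474, plus strand: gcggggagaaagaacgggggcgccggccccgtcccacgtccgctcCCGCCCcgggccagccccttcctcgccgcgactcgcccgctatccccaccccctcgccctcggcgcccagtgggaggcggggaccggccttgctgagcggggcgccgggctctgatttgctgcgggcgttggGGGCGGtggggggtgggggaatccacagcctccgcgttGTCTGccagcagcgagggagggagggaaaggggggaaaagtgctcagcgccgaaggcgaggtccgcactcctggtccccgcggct
Col5a3, chr9:20815018-20815317, minus strand: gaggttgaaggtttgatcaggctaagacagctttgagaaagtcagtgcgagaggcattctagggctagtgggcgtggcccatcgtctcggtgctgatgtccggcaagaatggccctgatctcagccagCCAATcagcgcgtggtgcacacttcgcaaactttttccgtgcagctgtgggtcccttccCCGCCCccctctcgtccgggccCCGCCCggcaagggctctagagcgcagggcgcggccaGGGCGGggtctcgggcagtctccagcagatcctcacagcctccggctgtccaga

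The 4 promoters differed in base composition and in the motifs they held. GC content was 61.0% for Col1a2, 37.7% for Col3a1, 75.0% for Col5a1 and 63.3% for Col5a3, against a median of 52.7% over all 32851 promoters in the table. The CCAAT box matched 2 times in Col1a2 and 1 time in Col5a3, and 37.4% of all promoters held it. The GC box matched in Col1a2, Col5a1 and Col5a3 (35.7% of all promoters), and the TATA box in Col3a1 alone of the 4 (13.6%). CAGAC matched in Col1a2, Col3a1 and Col5a1 and not in Col5a3 (49.6% of all promoters), and CATTCC matched in Col3a1 (14.7%). A match in these letters is a description of the window and was not tested as a site.

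The 3′ UTRs of these genes were searched for matches to the miR-29 family, microRNAs known for pairing with collagen messages. Mature microRNAs were not measured in these libraries, and the sequences are shown for what the chains have in common. The RefSeq mature sequences share 1 seed, bases 2 to 8, given in capitals. The chromosome is that of 1 entry for each name, and other copies in the genome are not listed.
miR-29a-3p (chromosome 6): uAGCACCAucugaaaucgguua
miR-29b-3p (chromosome 1): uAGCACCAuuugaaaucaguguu
miR-29c-3p (chromosome 1): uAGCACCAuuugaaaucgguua
The matching letters in a message are TGGTGCT, read on the transcript strand. In GENCODE M21 transcripts with the longest coding sequence, Col5a1 held 4 matches, Col5a3 held 3, Col1a1, Col3a1 and Col5a2 held 1 each, and Col1a2 held 0. Of all 20600 annotated 3′ UTRs, 11.8% held at least 1 match. Among 3′ UTRs of similar length (from 0.8 of its length up to its length divided by 0.8), at least 1 match was held by 12.6% for Col1a1, 9.20% for Col3a1, 23.5% for Col5a1, 15.6% for Col5a2 and 7.69% for Col5a3. At those lengths, at least 4 matches were held by 0.0838% for Col5a1, and at least 3 by 0.112% for Col5a3. Sites from Col3a1, Col5a1 and Col5a3 are given with the match in capitals.
Col3a1, chr1:45348967-45348989, plus strand: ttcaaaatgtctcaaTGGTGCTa
Col5a1, chr2:28038335-28038357, plus strand: gttgctgaatgtttgTGGTGCTa
Col5a3, chr9:20770503-20770525, minus strand: ctccaccaggcctttTGGTGCTa
The number of matches did not order the chains as their differences did: Col5a1 and Col5a3, with the most matches, had the largest and the smallest difference in size.

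Of the remaining fibrillar chains of the genome, Col27a1 was at about the level of Col5a3 and the others averaged below 1 FPKM. Col11a1, a chain of cartilage type XI collagen that can join type V, was at 0.19 FPKM in the Cd248 KO library, against 0.73, 1.15 and 0.93 FPKM in WT replicates 1, 2 and 3 (limma adjusted p = 0.335). Col24a1 was at 0.42 FPKM in the Cd248 KO library, against 0.54 to 1.35 FPKM in the WT libraries, and Col27a1 at 3.33 FPKM against 3.62 to 3.88 FPKM (limma adjusted p = 0.668 for each). Of the 5 listed, these 3 passed the filter of a mean of 0.5 FPKM, and 0 passed limma's adjusted test in either direction (1 had an unadjusted p under 0.05, against 10.8% of all tested genes). Col11a2 stayed at or below 0.43 FPKM in all 4 libraries, and the cartilage collagen gene Col2a1 was listed at 0 in the Cd248 KO library and at up to 0.03 FPKM in the WT libraries.

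Genes that fold, hydroxylate and export the chains had a median difference close to the value of Col5a3 and smaller in size than those of the other 5 chains. Of 21 such genes, 0 passed limma's adjusted test in either direction (9 had an unadjusted p under 0.05) and 19 lay below every WT library, against 10.8% and 31.2% of all tested genes, with a median difference of -0.29. Fkbp10, a chaperone of procollagen, was at 10.7 FPKM in the Cd248 KO library, against 20.7, 19.8 and 18.1 FPKM in WT replicates 1, 2 and 3 (limma adjusted p = 0.120). Creb3l1, a membrane-bound transcription factor that supports collagen secretion, was at 3.34 FPKM in the Cd248 KO library, against 7.88, 5.60 and 5.21 FPKM in the WT libraries (limma adjusted p = 0.431).

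Of 13 tested genes for propeptide removal and crosslinking, 0 passed limma's adjusted test in either direction (6 had an unadjusted p under 0.05), 8 lay below and 2 above every WT library, and the median difference was -0.33. Over all tested genes, 10.8% had such an unadjusted p, 31.2% lay below and 28.0% above every WT library. Adamts2, which cleaves the amino propeptide of types I and III, was at 5.76 FPKM in the Cd248 KO library, against 12.5, 18.0 and 15.6 FPKM in WT replicates 1, 2 and 3 (difference -1.26, limma adjusted p = 0.206). Lox, the lysyl oxidase that starts crosslinking, was at 13.95 FPKM in the Cd248 KO library, against 38.4, 40.0 and 27.1 FPKM in the WT libraries (difference -1.25, limma adjusted p = 0.262). Both stood at about the difference of the type I chains, and neither passed.

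Proteins that organise fibrils held the remaining passing genes of the collagen pathway. Of 16 tested, 2 were lower by the test (0.0830% of all tested genes), 0 were higher and 14 did not pass, and the median difference was -0.68. An unadjusted p under 0.05 was reached by 9 of the 16 (10.8% of all tested genes), and 14 lay below every WT library (31.2% of all tested genes). Col12a1, a fibril-associated collagen, fell to 17.2 FPKM in the Cd248 KO library, against 49.8, 57.1 and 52.5 FPKM in WT replicates 1, 2 and 3 (difference -1.57, SE 0.11, limma adjusted p = 0.0192). Fn1, the fibronectin on which type I fibrils assemble, fell to 41.0 FPKM in the Cd248 KO library, against 115.5, 97.4 and 107 FPKM in the WT libraries (difference -1.35, SE 0.13, limma adjusted p = 0.0456). With 1 WT library left out the limma adjusted p was 0.0979 to 0.154 for Col12a1 and 0.148 to 0.257 for Fn1.

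No tested receptor, protease or regulator of collagen passed limma's adjusted test in either direction, and at an unadjusted p under 0.05 there were 3 of 10, 5 of 11 and 11 of 25, against 10.8% of all tested genes. The 10 tested genes for collagen binding and uptake had a median difference of -0.19, with 5 below and 2 above every WT library (31.2% and 28.0% of all tested genes). Ddr2, a receptor kinase for fibrillar collagen, was at 9.78 FPKM in the Cd248 KO library, against 14.95, 16.02 and 13.7 FPKM in WT replicates 1, 2 and 3 (limma adjusted p = 0.269). Itgb1, the shared beta subunit of the collagen-binding integrins, was at 143 FPKM in the Cd248 KO library, against 208, 195 and 169.7 FPKM in the WT libraries (limma adjusted p = 0.477). The 11 tested collagenases and their inhibitors had a median difference of -0.59, with 7 below every WT library (31.2% of all tested genes). Mmp14, a membrane collagenase, was at 23.9 FPKM in the Cd248 KO library, against 43.8, 33.75 and 42.15 FPKM in the WT libraries (limma adjusted p = 0.326). Mmp9, a gelatinase, was at 2.60 FPKM in the Cd248 KO library, inside a wide WT range of 1.28 to 17.4 FPKM (limma adjusted p = 0.792).

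Among 25 tested regulators of collagen transcription the median difference was -0.26, with 21 below every WT library (31.2% of all tested genes) and 0 past the test in either direction. Ccn2, a matricellular growth factor induced by TGF-beta and YAP, was at 50.45 FPKM in the Cd248 KO library, against 146, 191 and 167 FPKM in WT replicates 1, 2 and 3 (difference -1.71, limma adjusted p = 0.0554). It passed with the same FPKM total in each library (limma adjusted p = 0.0171) and with the same total outside immunoglobulin genes. Under every other alternative it did not pass. Tgfb3, a TGF-beta ligand, was at 4.61 FPKM in the Cd248 KO library, against 7.60, 9.54 and 7.63 FPKM in the WT libraries (limma adjusted p = 0.287).

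**Figure D3:**
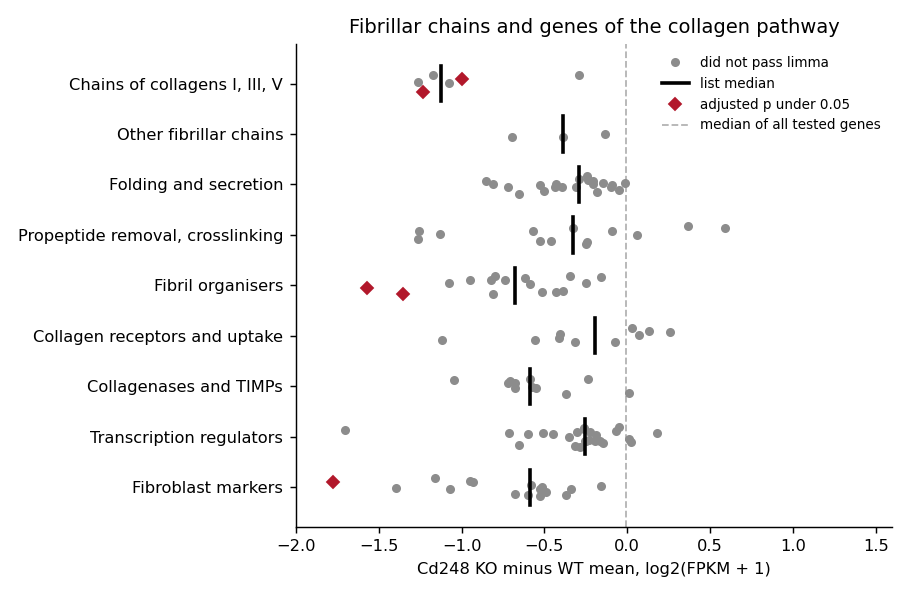
Difference between the Cd248 KO library and the WT mean on the log2(FPKM + 1) scale for each tested gene of 9 lists, with list medians as bars, genes past limma's adjusted p of 0.05 as diamonds and the median of all tested genes as a dashed line. The median of the 6 chains is -1.12, and those of the other lists lie between -0.68 and -0.19.

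Of 16 fibroblast markers that are not collagens, 14 lay below every WT library, with a median difference of -0.59. The lowest difference was that of Acta2, at -1.78. With 1 WT library left out the limma adjusted p of Acta2 was 0.104 to 0.119, against 0.0153 with all 3. The summed FPKM of the 16 markers was 253 in the Cd248 KO library, against 467 to 593 in the WT libraries, with no marker at 0. Acta2 and Tagln held a large part of that sum. Without them, the other 14 summed to 158 FPKM in the Cd248 KO library, against 225 to 312 FPKM in the WT libraries. The share of all tested genes below every WT library was 31.2%, as above. Their part in the collagen result was not tested.

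Set against single fibroblast markers within a library, the chains fell below every WT library less often than against genes at large. The summed FPKM of the 6 chains per FPKM of marker lay below every WT library for 9 of 16 markers, inside the WT range for 6 and above it for 1. Of all genes that averaged 2 FPKM or more, 98.1% gave a ratio below every WT library, a larger share than among the markers. The marker list was not held to that filter, and Meg3, inside the WT range, averaged 0.8 FPKM. Per FPKM of Pdgfra, a receptor of resident fibroblasts, the chains summed to 18.2 in the Cd248 KO library, against 27.4, 25.7 and 30.9 in WT replicates 1, 2 and 3. Per FPKM of Pdgfrb, a receptor of pericytes and fibroblasts, they summed to 8.46 in the Cd248 KO library, against 12.0, 13.8 and 14.7 in the WT libraries. Per FPKM of Acta2, the smooth muscle actin of myofibroblasts, they summed to 5.93 in the Cd248 KO library, against 3.69, 4.09 and 3.75 in the WT libraries. The groups did not overlap for these 3 markers, and the direction for Acta2 was opposite to that for the receptors. A ratio below every WT library, as for the receptors, is also what 98.1% of genes gave. Tagln and Postn, of the same list, did not share the direction of Acta2. Per FPKM of Tagln the chains summed to 4.13 in the Cd248 KO library, inside the WT range of 3.71 to 4.37. Per FPKM of Postn they summed to 50.7 in the Cd248 KO library, inside the WT range of 39.4 to 61.9. Ratios of the chains to single contractile genes outside this list were not examined, so whether those genes share the direction of Acta2 was not tested. Pdgfra, Pdgfrb, Acta2, Tagln and Postn were picked from the marker list after their values were seen.

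**Figure D4:**
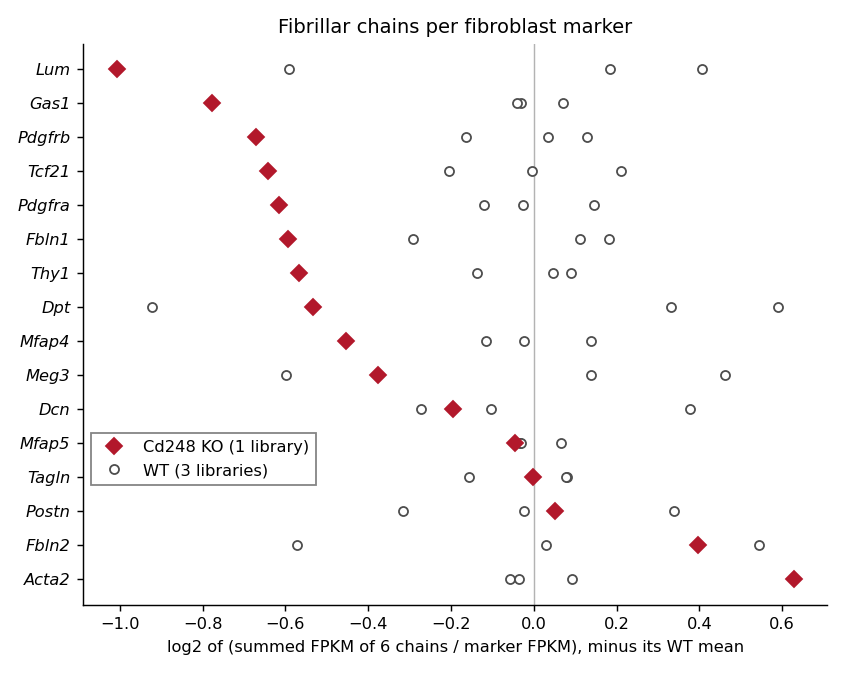
log2 of the summed FPKM of the 6 chains divided by the FPKM of each of 16 fibroblast markers, minus the WT mean of that ratio, with the Cd248 KO library as a diamond and the 3 WT libraries as open circles. Diamonds lie left of all circles for 9 markers and right of all circles for Acta2 (5.93 against 3.69 to 4.09 before taking logs).

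Markers of other cell types also differed between the libraries, where 31.2% of all tested genes lay below and 28.0% above every WT library. Pericyte and smooth muscle markers (10 of 11 below every WT library) summed to 99.2 FPKM in the Cd248 KO library, against 135 to 158 FPKM in the WT libraries. Endothelial markers (10 of 10 below) summed to 185 FPKM in the Cd248 KO library, against 239 to 304 FPKM. Urothelium markers (8 of 9 below) summed to 32.03 FPKM in the Cd248 KO library, where Upk2 was listed at 0, against 39.4 to 132 FPKM. Markers of B and plasma cells (8 of 9 above every WT library) summed to 433 FPKM in the Cd248 KO library, against 75.3 to 99.55 FPKM. Macrophage markers (0 of 10 below and 1 above) summed to 1230.5 FPKM in the Cd248 KO library, inside the WT range of 859 to 1343 FPKM. The part of these cell types in the collagen result was not tested.

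Genes with the profile nearest to the mean of the 6 chains were sought by the root mean square difference over the 4 libraries of log2(FPKM + 1) minus the WT mean, among 8598 other genes that averaged 5 FPKM or more. The 5 nearest, at distances of 0.062 to 0.075, were Myl9, a regulatory myosin light chain of contractile cells, Mfap5, a microfibril protein, Itprip, Fxyd6 and Fstl1, a secreted follistatin-like protein. Myl9 fell to 39.9 FPKM in the Cd248 KO library, against 84.9, 91.2 and 84.9 FPKM in WT replicates 1, 2 and 3 (limma adjusted p = 0.0346; 0.161 to 0.313 with 1 WT library left out). The other 4 did not pass (limma adjusted p of 0.139 to 0.252). By the same measure Col5a2 was nearest to the mean of the chains, at 0.047, and Col5a3 farthest, at 0.37, and each chain is itself part of that mean. The 5 named genes lay nearer to it than Col1a1, Col3a1, Col5a1 and Col5a3 did.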

How the data were processed

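Messenger RNA of obstructed mouse kidneys was sequenced. The deposited table gives FPKM per gene, and the labels place its value columns with 1 Cd248 KO library and 3 WT libraries. The sources used here do not name the program that made the FPKM. The submitters' processing notes list cutadapt 1.9, FastQC and HISAT2 2.0.4 with the mm10 build, with no role or order. The authors' deposited table also holds fold changes, which are ratios of the Cd248 KO value to the WT mean, their log2, and p-values and q-values from a test that is not stated. No counts were given, so the depth is unknown and no counting interval was made. Strand use is not stated.

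The members and gene lists were chosen with earlier results of these data known. Genes that averaged 0.5 FPKM or more were tested on log2(FPKM + 1) with limma 3.58.1 in R 4.3.3 (empirical Bayes with a trend of variance on mean, 2 residual degrees of freedom), two-sided, with Benjamini-Hochberg adjustment over all genes tested. Fold differences on this scale understate the change of low genes. The spread came from the WT libraries, and the lone Cd248 KO library was assumed to vary like them. Adjusted p-values of single genes without 1 WT library came from the same fit on 3 libraries. Single values and within-library chain ratios had a two-sided exact permutation test over libraries. The fit was checked on simulated data in which the Cd248 KO library varied like the WT libraries. That check cannot bear on this assumption. The text names Cd248, the 6 chains, the passing genes of each pathway list, the 2 with the largest difference at an average of 5 FPKM or more in each such list, and the 5 genes nearest in profile. The other fibrillar chains were all given by value, and Acta2, the single passing fibroblast marker, was named after its value was seen. Alternatives changed the scaling, pseudocount, filter, variance model, genes tested and WT libraries. Groups of 3 or fewer libraries were not examined for outlying samples.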

Additional observations from a re-analysis of the deposited data

How the results depend on the processing

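All 6 chains lay below every WT library and kept a negative difference under each of the 12 alternatives to the fit, but the calls did not hold. Only rescaling the libraries or quantile normalization could have changed this position. The other alternatives keep the order of the libraries or drop a WT library, so their outcome on this point was fixed in advance. Against 2 chains called lower, 4 were called with the same FPKM total in each library, 1 with no filter, 1 with no mean-variance trend, and 0 with a pseudocount of 0.1 FPKM, without immunoglobulin genes or with 1 WT library left out. Col1a1 missed the limma threshold with a pseudocount of 0.1 FPKM (-1.25, adjusted p = 0.0651), with no filter (-1.23, 0.0613), without immunoglobulin genes (-1.23, 0.147) and with 1 WT library left out (-1.25 to -1.20). Col5a2 missed it with the same pseudocount (-1.04, 0.0646), with no trend (-0.998, 0.0546), without immunoglobulin genes (-0.998, 0.147) and with 1 WT library left out (-1.01 to -0.97). Col1a2 passed with the same FPKM total (-1.21, 0.0447). Col5a1 passed with the same FPKM total (-1.39, 0.0217), with a filter of 2 FPKM (-1.26, 0.0497) and with the same total outside immunoglobulin genes (-1.31, 0.0264), the last chosen after seeing the data. The same FPKM total moved the median of all genes to -0.11. Over all genes, against 14 lower, 24 were called with the same FPKM total, 22 with the same total outside immunoglobulin genes, 6 with a pseudocount of 0.1 FPKM, 4 with no filter, 1 without immunoglobulin genes and 1 to 4 with 1 WT library left out. Against 108 higher, there were 33 with a pseudocount of 0.1 FPKM, 201 with no filter, 1 without immunoglobulin genes and 41 to 62 with 1 WT library left out. The log2 ratio of Col1a1 to Col5a1 shifted by 0.09 and by -0.029 after quantile normalization. The cause of these changes was not tested. No paired analysis was possible because values of 1 Cd248 KO library were used, so the groups shared fewer than 2 replicate numbers.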
